A study of Mus musculus with 6 samples.

Results

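The Hox genes of the mouse are the 4 clusters *Hoxa* to *Hoxd* of homeobox transcription factors, and their levels were read here in femoral bone and in osteoblasts. They were chosen by name, as every gene called *Hoxa*, *Hoxb*, *Hoxc* or *Hoxd* with a number, and 35 of the 48733 named genes met the rule. Of these, 10 lie in the *Hoxa* cluster on Chr. 6, 10 in *Hoxb* on Chr. 11, 7 in *Hoxc* on Chr. 15 and 8 in *Hoxd* on Chr. 2, all in GRCm38. NCBI RefSeq lists 39 such genes in the mouse. The other 4, *Hoxa3*, *Hoxc5*, *Hoxc9* and *Hoxd4*, have no feature of their own name and were not analysed here on their own.

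RNA was sequenced in 6 libraries of CC016/GeniUnc mice, which belong to an inbred strain made by crossing founders of the Collaborative Cross and carry no engineered allele. The 3 libraries labelled bone come, by their labels, from cortical femur freed of its marrow by centrifugation, with no treatment named. The 3 labelled osteoblasts come from adherent marrow stromal cells kept for 8 days with dexamethasone at 10 nM, beta-glycerophosphate at 10 mM and ascorbic acid at 50 µg/ml, which drive such cells to lay down mineral. The study's methods give 3 mice as the source of femora and marrow. Their age, and which libraries share a mouse, are not given in the sources used here, so the spread between libraries of a label may hold technical as well as animal differences. The values are FPKM, sequenced fragments scaled for the length of the transcript and for the mapped reads of the library, which can be compared between genes. Levels were summed over features of one name.

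A Hox gene carries a number, its paralog number, that gives its place in the cluster, and genes of the same number in different clusters descend from one ancestor. Low numbers are first active near the head and high numbers toward the tail and along the growing limb, so that the set of Hox genes a cell expresses marks where it lies in the body. In the limb, paralogs 9 and 10 act in the part next to the trunk, which includes the femur, paralog 11 in the segment below it and paralog 13 in the hand and foot. Adult connective tissue and bone cells are known to keep part of this code. Blood progenitors also express Hox genes, mainly of the *Hoxa* and *Hoxb* clusters, in which *Hoxa9* and *Hoxb4* are tied to self-renewal.

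Summed by the names of features, paralog 10 held the largest share of the Hox FPKM in every library, 30.2 to 36.3%. Its 3 genes, *Hoxa10*, *Hoxc10* and *Hoxd10*, are shown here by their homeobox, the stretch that codes for the DNA-binding domain, to let a reader see how alike genes of one number are in sequence. The sequences are from the transcripts of GENCODE vM1, run 5′ to 3′ and start at coding base 1024, 802 and 796 of the named gene. Capitals in the lines of *Hoxc10* and *Hoxd10* mark bases that differ from *Hoxa10*, and capitals in the line of *Hoxa10* mark bases that differ in either of the others.
Hoxa10: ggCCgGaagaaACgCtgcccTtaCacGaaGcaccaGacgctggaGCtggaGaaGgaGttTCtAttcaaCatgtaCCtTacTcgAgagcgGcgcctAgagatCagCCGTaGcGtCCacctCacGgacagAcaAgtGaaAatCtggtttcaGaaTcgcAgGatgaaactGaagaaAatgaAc
Hoxc10: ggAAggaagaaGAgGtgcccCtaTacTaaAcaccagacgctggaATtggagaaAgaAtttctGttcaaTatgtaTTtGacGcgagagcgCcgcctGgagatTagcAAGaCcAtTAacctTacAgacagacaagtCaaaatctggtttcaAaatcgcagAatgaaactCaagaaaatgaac
Hoxd10: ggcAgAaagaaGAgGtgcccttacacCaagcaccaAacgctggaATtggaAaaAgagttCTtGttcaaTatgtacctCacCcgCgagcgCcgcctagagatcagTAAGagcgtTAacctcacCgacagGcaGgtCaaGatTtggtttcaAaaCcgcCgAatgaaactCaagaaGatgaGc
Over the 180 bases, *Hoxc10* differs from *Hoxa10* at 35 and *Hoxd10* at 38, an identity of 80.6% and 78.9%. The longest run of bases that the whole transcripts of *Hoxa10* and *Hoxc10* share without a mismatch is 17. Among all 569 pairs of Hox genes from different clusters the longest was 52, shorter than a read of 75 bases. Within a cluster, 3 of 172 pairs share a run of at least 75 bases, namely *Hoxb7* with *Hoxb8* (1069 bases), *Hoxd3* with *Hoxd4* (831 bases) and *Hoxa2* with *Hoxa3* (269 bases). How the authors' counting divided reads within these 3 pairs is not given in the sources used here, and the levels of *Hoxb7*, *Hoxb8*, *Hoxd3* and *Hoxa2* are uncertain for that reason.

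The features behind 3 of the names contain other Hox genes. The feature named *Hoxa2*, on the minus strand of Chr. 6 from 52162417 to 52213339, spans 50923 bp, while RefSeq gives *Hoxa2* 2415 bp, and contains the positions of *Hoxa3*, *Hoxa4*, *Hoxa5* and *Hoxa6*. The one named *Hoxc10*, from 102966796 to 103017429 of Chr. 15 (plus strand), spans 50634 bp against 5103 bp in RefSeq and contains *Hoxc9*, *Hoxc8*, *Hoxc6* and *Hoxc5*. That named *Hoxd3*, from 74711927 to 74748442 of Chr. 2 (plus strand), contains *Hoxd4*, as the RefSeq gene of 36279 bp does. Values under these names may therefore include reads of their neighbours, which was not tested. *Hoxa4*, *Hoxa5*, *Hoxa6*, *Hoxc6* and *Hoxc8* also have features of their own. Other features also differ in length from RefSeq without containing another Hox gene, such as *Hoxa7* with 7364 against 2951 bp and *Hoxa9* with 7990 against 4274 bp. The feature of *Hoxa10*, on the minus strand of Chr. 6 from 52231197 to 52240854, has the ends that RefSeq gives the gene.

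Each library is given with its level of *Hbb-bt*, an adult beta-globin gene of red blood cells. *Hbb-bt* was above 1000 FPKM in bone 3 and in osteoblasts 2 and 3, and at most 7.05 FPKM in bone 1, bone 2 and osteoblasts 1, so that both labels hold libraries of both kinds. The labels themselves are therefore in doubt. They were kept as deposited, bone 1 stands for the library labelled bone replicate 1 and so on, and each comparison of osteoblasts with bone is one of labels. Marker lists of other cell types moved with *Hbb-bt*. Between the libraries low and those high in *Hbb-bt*, the 4 erythroid markers summed to 3.48 to 7.29 against 35727 to 50254 FPKM, the 7 neutrophil markers to 0.430 to 5.51 against 14246 to 17226 and the 5 blood progenitor markers to 3.56 to 6.98 against 39.3 to 47.7. The 3 B cell markers were at 0 in each library low in *Hbb-bt*, as were *Elane*, *Flt3* and *Tnnt3*, and summed to 88.5 to 101 FPKM in the others. The 3 skeletal muscle markers came to 0.032 to 1.09 against 221 to 943, the 3 endothelial markers to 0.248 to 4.70 against 26.3 to 35.9, the 5 stromal fibroblast markers to 888 to 2102 against 188 to 339, and the 5 macrophage and osteoclast markers to 437 to 1000.4 against 558 to 614. The 10 osteoblast and osteocyte markers summed to 5313 to 8600 and 5617 to 6647 FPKM. Among them *Sost*, made by osteocytes embedded in bone, was at most 0.198 FPKM in the former and 15.8 to 22.7 FPKM in the latter. *Dmp1*, of the same list, went the other way, with 50.0 to 127 FPKM in the former and 22.5 to 24.2 FPKM in the latter. *Ibsp* and *Alpl* were also higher in the former, and *Bglap2* was lower, like *Sost*. Each erythroid, neutrophil, B cell, blood progenitor, muscle and endothelial marker was lower in every library low in *Hbb-bt* than in any other, 4 of 5 stromal markers were higher, and of the osteoblast and osteocyte markers 3 were higher and 2 lower and of the macrophage and osteoclast markers 3 higher and 1 lower. These differences cross the labels, and their part in the Hox results was not tested. The libraries held 2.03 to 3.39 Gb of aligned bases, and 3 read pairs on a 1 kb transcript equal 0.133 to 0.221 FPKM, a floor that covers counting error only. Named features took 28.5% of the FPKM in bone 2 and 35.0% in osteoblasts 1, against 69.3 to 72.6% in the other 4.

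Hox genes were low in all libraries and the *Hoxa* cluster led them. The 35 genes summed to 39.6, 18.7 and 15.3 FPKM in bone 1, 2 and 3, and to 23.6, 18.0 and 14.2 FPKM in osteoblasts 1, 2 and 3. The sum was thus highest in bone 1, and the labels overlapped. In bulk RNA, fewer cells of a type and less RNA per cell cannot be told apart. The number of Hox genes above 0 FPKM was 21 to 28 per library and the number at or above 1 FPKM was 4 to 10. Over the 6 libraries, 11 genes reached 1 FPKM somewhere, 19 were above 0 in some library but under 1 in each, and 5 were listed at 0 in each, *Hoxb8*, *Hoxb13*, *Hoxd1*, *Hoxd12* and *Hoxd13*. Under the floor in all 6 libraries were 9 genes, and 11 were at or above it in all 6.

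**Figure D1:**
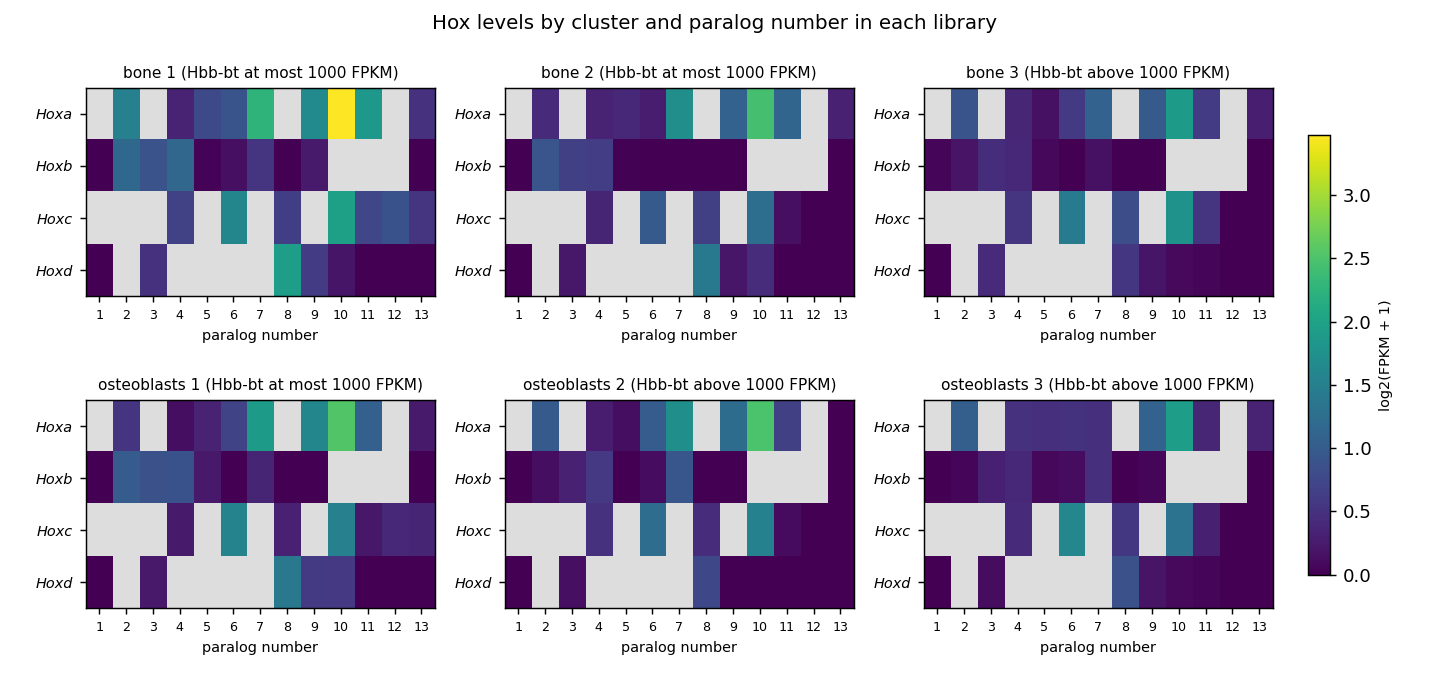
Level of each Hox gene as log2(FPKM + 1), drawn as colour, with the cluster on the vertical axis and the paralog number on the horizontal axis, in 1 panel per library. Grey marks positions with no gene of that name in the tables or not shown here. The brightest square of each panel is *Hoxa10*, and the row of *Hoxd* is dark at paralogs 11 to 13 in all 6 panels.

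*Hoxa10*, which patterns the femur and the lumbar spine, was the highest Hox gene in all 6 libraries. It measured 10.1, 4.47 and 2.72 FPKM in bone 1, 2 and 3 and 4.76, 4.64 and 2.83 FPKM in osteoblasts 1, 2 and 3. Only bone 1 stood clear of the rest, and the labels overlapped. It made up 17.8 to 25.8% of the Hox FPKM of a library. The second gene in rank was *Hoxa7* in 4 libraries, *Hoxc10* in bone 3 and *Hoxc6* in osteoblasts 3.

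*Hoxa11*, which acts in the limb segment below the femur, measured 2.60, 1.19 and 0.532 FPKM in bone and 1.10, 0.574 and 0.297 FPKM in osteoblasts, in replicate order. Every library low in *Hbb-bt* was above 1 FPKM and every library high in it was below, while the labels overlapped. *Hoxa11os*, a noncoding RNA read from the other strand, overlaps *Hoxa11*, and the TruSeq kit does not mark strand, so reads of the pair could not be told apart where they overlap. *Hoxa13*, a gene of hand and foot, reached 0.405 FPKM at most and was listed at 0 in osteoblasts 2.

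*Hoxa9*, active in the upper limb segments and in blood progenitors, measured 2.16, 1.13 and 0.981 FPKM in bone 1 to 3 and 2.03, 1.34 and 1.12 FPKM in osteoblasts 1 to 3. *Hoxa7*, a gene of the trunk that blood progenitors also use, measured 3.79, 2.27 and 1.13 FPKM in bone and 2.70, 2.31 and 0.396 FPKM in osteoblasts. Both were highest in bone 1, and both overlapped between the labels and between libraries high and low in *Hbb-bt*. The lower-numbered *Hoxa* genes followed. *Hoxa6* measured 0.860, 0.197 and 0.501 FPKM in bone and 0.637, 1.01 and 0.422 FPKM in osteoblasts, with no order by label. The feature named *Hoxa2*, a gene that patterns the second pharyngeal arch, measured 1.84, 0.348 and 0.872 FPKM in bone and 0.439, 0.979 and 1.08 FPKM in osteoblasts. *Hoxa4* and *Hoxa5*, genes of the neck and upper trunk, reached 0.405 and 0.698 FPKM at most.

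In the *Hoxc* cluster, *Hoxc10*, which works with *Hoxa10* in the hindlimb, measured 2.92, 1.38 and 2.43 FPKM in bone and 1.86, 1.89 and 1.49 FPKM in osteoblasts. Its lowest and its highest library both carried the label bone. *Hoxc6*, a gene of the thorax, measured 2.01, 0.977 and 1.70 FPKM in bone and 1.92, 1.36 and 2.04 FPKM in osteoblasts. Neither gene separated the labels or the libraries high and low in *Hbb-bt*. *Hoxc8*, which patterns the thoracic vertebrae, lay at 0.564, 0.584 and 0.769 FPKM in bone and at 0.246, 0.363 and 0.484 FPKM in osteoblasts. It was the one Hox gene with every osteoblasts library below every bone library, a pattern shown by 0.751% of the 19977 genes with a mean of at least 0.1 FPKM. *Hoxc4* and *Hoxc11* were above 0 in all 6 libraries and reached 0.587 and 0.673 FPKM. *Hoxc12* and *Hoxc13*, known from hair and nail, were above 0 in 2 libraries, bone 1 and osteoblasts 1, with 0.834 and 0.313 FPKM for *Hoxc12* and 0.432 and 0.285 FPKM for *Hoxc13*.

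In the *Hoxd* cluster *Hoxd8*, a trunk gene, was the only one to reach 1 FPKM. It measured 2.82, 1.65 and 0.460 FPKM in bone and 1.63, 0.682 and 0.813 FPKM in osteoblasts. As for *Hoxa11*, the libraries low in *Hbb-bt* were all above those high in it. *Hoxd3*, *Hoxd9* and *Hoxd10* reached 0.409, 0.536 and 0.490 FPKM, and *Hoxd11*, the partner of *Hoxa11* in the limb, reached 0.036 FPKM. *Hoxd12* and *Hoxd13*, which shape the digits, were listed at 0 in all libraries.

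In the *Hoxb* cluster, *Hoxb2*, best known from the hindbrain, measured 1.24, 0.893 and 0.134 FPKM in bone and 1.01, 0.091 and 0.038 FPKM in osteoblasts. Bone 3 and osteoblasts 2 and 3 were all below the other 3 libraries. *Hoxb4*, tied to blood stem cells, measured 1.21, 0.543 and 0.307 FPKM in bone and 0.826, 0.498 and 0.319 FPKM in osteoblasts. The same 3 libraries were the lowest, the nearest being osteoblasts 2 and bone 2. *Hoxb3* reached 0.844 FPKM and *Hoxb7* 0.896 FPKM. *Hoxb1*, *Hoxb5*, *Hoxb6* and *Hoxb9* reached 0.041, 0.178, 0.101 and 0.188 FPKM.

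**Figure D2:**
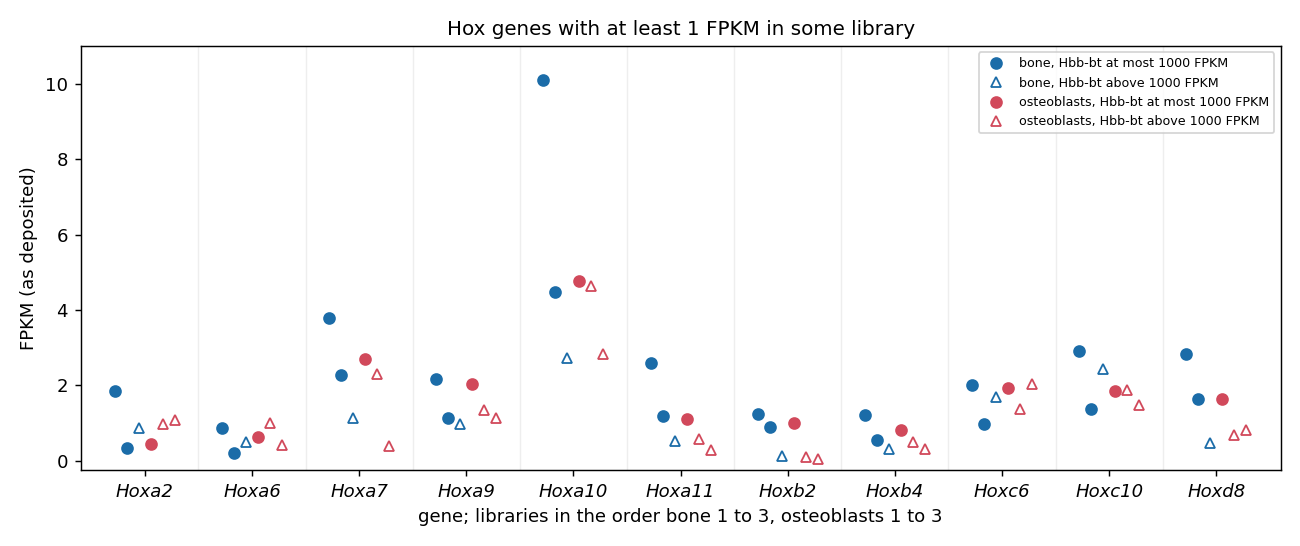
FPKM (vertical axis, as deposited) of the 11 Hox genes that reached 1 FPKM in some library, with 1 point per library in the order bone 1 to 3 and osteoblasts 1 to 3. Colour gives the label and shape gives whether *Hbb-bt* was above 1000 FPKM, and the points of *Hoxa11*, *Hoxb2*, *Hoxb4* and *Hoxd8* split by shape and not by colour.

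The comparison the labels set up is of osteoblasts with bone. No Hox gene passed the test. With limma on log2(FPKM + 1) over the 12112 genes with a mean of at least 1 FPKM, 0 of the 7 Hox genes tested and 0 of all genes (0%) were called at 0.05 after Benjamini-Hochberg adjustment. At an unadjusted p under 0.05 there were 17 genes (0.14%), none of them a Hox gene. limma without a trend also called 0 genes. The difference osteoblasts minus bone on this log2 scale was -0.50 (SE 0.48) for *Hoxa11*, -0.32 (SE 0.53) for *Hoxa7*, -0.29 (SE 0.50) for *Hoxa10*, -0.29 (SE 0.49) for *Hoxd8* and -0.21 (SE 0.41) for *Hoxc10*. It was 0.06 (SE 0.42) for *Hoxa9* and 0.13 (SE 0.41) for *Hoxc6*, and the sign of *Hoxa9* turned with TPM, with both scalings to named genes and with quantile normalization, while that of *Hoxc6* turned with quantile normalization. The 7 genes had a median of -0.29, beside 0.12 over all genes tested, and all 7 adjusted p were 0.999 (limma). Scaling to named genes moved the median of all genes from 0.12 to -0.04. In the fit without a filter 30 Hox genes could be tested and 0 were called, as were 0 of 27562 genes (0%). The other 5 were those listed at 0.

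Because bone 3 and osteoblasts 1 differed from the other libraries of their label in *Hbb-bt*, the fit was repeated without them, a choice made after the data were seen. It left 2 libraries per label, those labelled bone low and those labelled osteoblasts high in *Hbb-bt*. Then 1 of 8 Hox genes was called, *Hoxa11*, which was lower in osteoblasts by a log2 difference of -0.97 (SE 0.35, adjusted p = 0.0241, limma), beside 25.0% of 12173 genes called. Label and *Hbb-bt* cannot be told apart in these 4 libraries.

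Without such a fit, the labels can be compared by whether their libraries overlap. Of the 7 Hox genes with a mean of at least 1 FPKM, none had all osteoblasts libraries above or all below bone, as 0.479% and 0.438% of the 12112 genes had. Among the 25 with a mean of at least 0.1 FPKM, none was higher, beside 0.786% of genes, and *Hoxc8* was lower. Scaled to named genes, *Hoxc4* was lower as well, beside 0.996% of genes, and with coverage in place of FPKM *Hoxc8* and *Hoxd3* were lower, beside 0.656%.

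Ordered by *Hbb-bt*, which is a measured value and for which no test was run, more Hox genes fell into separate ranges. Of the 7 genes, 2 (*Hoxa11* and *Hoxd8*) were higher in each library low in *Hbb-bt* than in any high in it, beside 16.9% of genes, and 0 were lower, beside 38.4%. Both were under 1 FPKM in the libraries high in *Hbb-bt* (0.297 to 0.574 and 0.460 to 0.813 FPKM) and passed the filter on the mean through the others, so nothing is read from the count. Of the 25, 8 were higher, among them *Hoxa11*, *Hoxb2*, *Hoxb3*, *Hoxb4*, *Hoxd8*, *Hoxd9* and *Hoxd10*, beside 12.4% of genes, and 0 lower, beside 40.7%. *Hoxb2* (0.038 to 0.134 FPKM), *Hoxd9* (0 to 0.141 FPKM) and *Hoxd10* (0 to 0.067 FPKM) were under the floor in each library high in *Hbb-bt*. They passed the filter through the others, so nothing is read from this count either.

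These counts move with the scale, and as the filter stayed the same, nothing is read from those on the other scales. FPKM is relative to all aligned reads, unnamed features included. Scaled to the sum of named genes, the Hox genes came to 66.6, 52.6 and 17.5 FPKM of every 1000000 in bone 1 to 3 and to 60.5, 20.9 and 17.2 in osteoblasts 1 to 3. On that scale all 7 genes were higher in the libraries low in *Hbb-bt* (48.6% of all genes), 16 of the 25 were higher (34.5%) and 0 were lower in either set (21.4% and 25.5%). With coverage per base divided by depth, a scale added after the data were seen, 4 of 7 were higher (19.4%) and 0 lower (37.4%), and 10 of 25 were higher (14.0%) and 0 lower (40.1%). *Hoxa11* and *Hoxd8* were among the separate genes on each of these scales. On the coverage scale, which averages over the whole feature, *Hoxc6* came to 0.092 to 0.247 and the feature of *Hoxa2* to 0.021 to 0.065, against 0.977 to 2.04 and 0.348 to 1.84 FPKM, whereas *Hoxa10* came to 1.28 to 4.95.

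A ratio of FPKM within a library does not depend on the total the library is scaled to, and each gene was therefore set against *Hoxa10*. The ratio of *Hoxa11* to *Hoxa10* was 0.258, 0.265 and 0.196 in bone 1 to 3 and 0.231, 0.124 and 0.105 in osteoblasts 1 to 3. It was 0.231 to 0.265 in the libraries low in *Hbb-bt* and 0.105 to 0.196 in the others. That of *Hoxb2* ran from 0.123 to 0.213 in the former and from 0.013 to 0.049 in the latter. In each of the latter *Hoxb2* itself, at 0.038 to 0.134 FPKM, was under the depth floor, so those ratios rest on few reads. In the other direction, the ratio of *Hoxc10* to *Hoxa10* was 0.289, 0.309 and 0.894 in bone and 0.391, 0.407 and 0.526 in osteoblasts, lower in each library low in *Hbb-bt*. The ratios of *Hoxa2* (0.078 to 0.182 against 0.211 to 0.382) and *Hoxa6* (0.044 to 0.134 against 0.149 to 0.218) were ordered the same way as that of *Hoxc10*. The lowest ratio of *Hoxa6*, 0.044 in bone 2, rests on few reads, as *Hoxa6* was there at 0.197 FPKM, under the floor of 0.205 FPKM. The ratio of *Hoxb4* was 0.120 to 0.173 against 0.107 to 0.113, a gap that was lost on the coverage scale, while the orders of *Hoxa11*, *Hoxb2*, *Hoxc10*, *Hoxa2* and *Hoxa6* were the same there. Those of *Hoxa7*, *Hoxa9*, *Hoxc6* and *Hoxd8* overlapped in FPKM. On the coverage scale, however, that of *Hoxa7* was higher and that of *Hoxa9* lower in each library low in *Hbb-bt*. None of the 10 ratios separated the labels in FPKM. The share of other gene pairs with such an order was not computed. Nothing is therefore read from the number of ratios ordered by *Hbb-bt*.

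**Figure D3:**
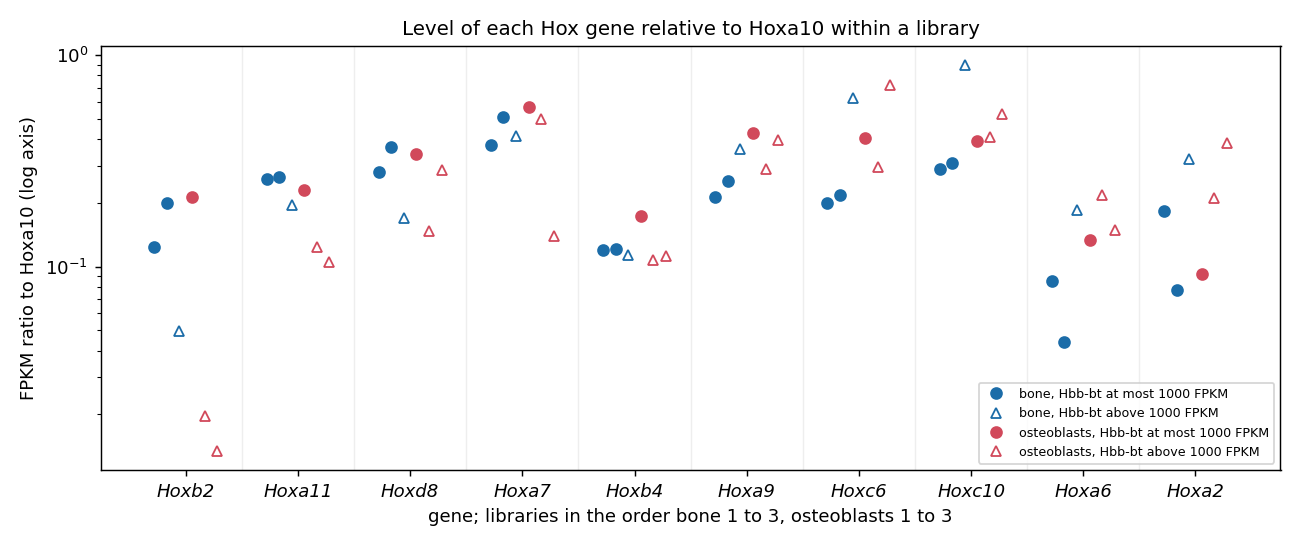
Ratio of the FPKM of 10 Hox genes to that of *Hoxa10* in the same library (vertical log axis), with 1 point per library, colour for the label and shape for *Hbb-bt*. The filled circles lie above the triangles for *Hoxb2*, *Hoxa11* and *Hoxb4* and below them for *Hoxc10*, *Hoxa6* and *Hoxa2*.

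By cluster, *Hoxa* held 48.5 to 62.7% of the Hox FPKM, *Hoxc* 17.8 to 38.0%, *Hoxb* 6.66 to 13.2% and *Hoxd* 4.38 to 12.5%. *Hoxa* summed to 14.0 ± 8.5 FPKM in bone and 10.4 ± 2.8 FPKM in osteoblasts (SD, n = 3), and *Hoxc* to 5.72 ± 2.34 and 4.56 ± 0.44 FPKM. *Hoxb* summed to 2.37 ± 1.55 and 2.03 ± 1.00 FPKM, and *Hoxd* to 2.43 ± 1.44 and 1.57 ± 1.08 FPKM. For each cluster the difference between the label means was smaller than the SD in bone. The share of *Hoxc* was 20.2, 17.8 and 38.0% in bone 1 to 3 and 21.1, 22.8 and 32.3% in osteoblasts 1 to 3, and so lower in each library low in *Hbb-bt*. The shares of *Hoxb* and *Hoxd* were higher in those libraries. On the coverage scale the order held for *Hoxd* and not for *Hoxb* or *Hoxc*.

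By paralog number, the 15 genes of paralogs 9 to 13 held 45.9 to 53.0% of the Hox FPKM, the 13 of paralogs 4 to 8 held 33.7 to 44.0%, and the 7 of paralogs 1 to 3 held 8.59 to 13.8%. Paralog 10 alone summed to 13.2, 6.22 and 5.21 FPKM in bone and 7.12, 6.53 and 4.39 FPKM in osteoblasts. Paralog 11 summed to 3.28, 1.29 and 1.02 FPKM in bone and 1.27, 0.651 and 0.567 FPKM in osteoblasts. Its share of the Hox FPKM was 6.70 to 8.27% in bone and 3.62 to 5.36% in osteoblasts, without overlap, and that of paralog 9 was 6.92 to 7.34% in bone and 7.43 to 10.7% in osteoblasts, also without overlap. The other 11 paralog numbers overlapped between the labels. All these sums go by the names of features. Paralog 10 thus takes in the feature of *Hoxc10*, which contains *Hoxc9*, *Hoxc8*, *Hoxc6* and *Hoxc5*. The sum with *Hoxa2* takes in a feature that contains *Hoxa3* to *Hoxa6*. *Hoxa3*, *Hoxc5*, *Hoxc9* and *Hoxd4* are missing from the sums of their own numbers. On the coverage scale paralog 11 still did not overlap (11.1 to 13.5% in bone and 7.34 to 9.22% in osteoblasts), whereas paralog 9 did, and paralog 10 held 26.2 to 32.9%. On that scale paralogs 4 to 8 held more than paralogs 9 to 13 in osteoblasts 2 (52.5 against 44.1%) and, by a smaller margin, in osteoblasts 3, and paralogs 1 to 3 held 3.25 to 10.8%. No test was run on these shares, which depend on one another as parts of one total. With 3 libraries per label, the smallest p of an exact two-sided permutation test is 0.1. Nothing is therefore read from the shares without overlap. Paralogs 12 and 13 summed to at most 0.834 and 0.836 FPKM.

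**Figure D4:**
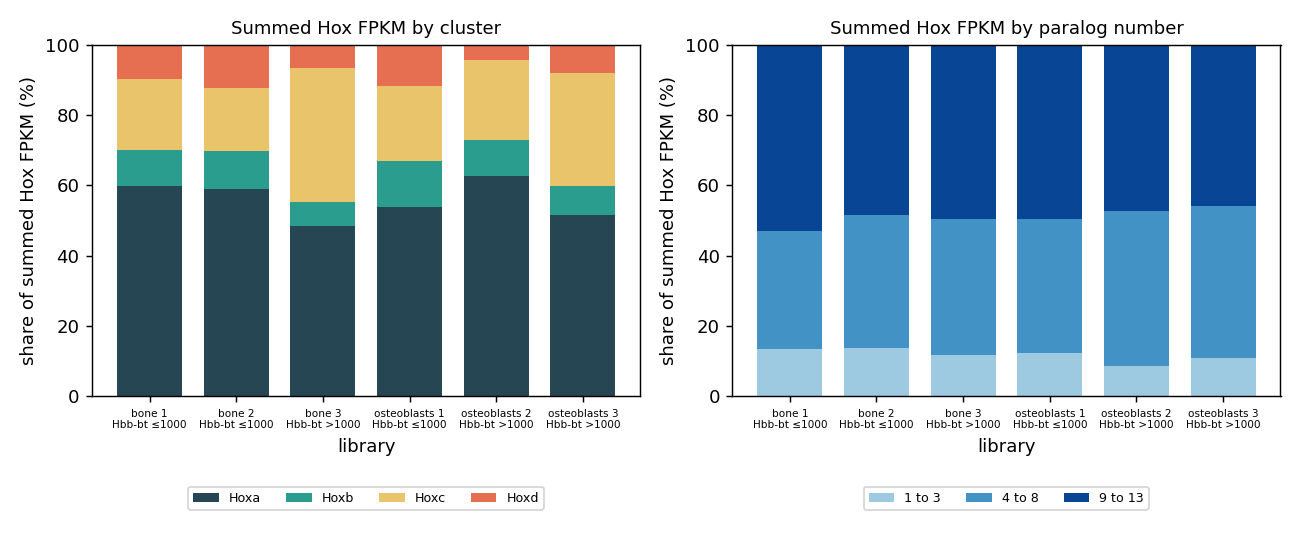
Share of the summed Hox FPKM of each library (vertical axis, percent), with 1 bar per library. The left panel is by cluster and the right panel by the paralog number in the name of the feature. *Hoxa* is the largest block of every bar, 48.5 to 62.7%, and in FPKM paralogs 9 to 13 are the largest block of the right panel, 45.9 to 53.0%.

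The order of the 35 Hox genes was alike across libraries. Spearman's rho over the 35 genes was 0.691 to 0.889 for the 6 pairs of libraries with one label and 0.764 to 0.922 for the 9 pairs with different labels. It was 0.861 to 0.922 for the 6 pairs on the same side of 1000 FPKM of *Hbb-bt* and 0.691 to 0.847 for the 9 pairs on different sides. These values are a description over genes, which share a library and its depth. The 35 include 9 genes under the floor in every library, 5 of them at 0 in each, and genes tied at the bottom throughout raise rho.

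The promoters of the genes that separated by *Hbb-bt* in FPKM with a mean of at least 1, *Hoxa11* and *Hoxd8*, and of both starts of *Hoxa10*, the highest of the Hox genes, are shown as the 150 bases before the start site in RefSeq on GRCm38.p6, 5′ to 3′ on the strand of the gene. The windows are chr6:52245811-52245960 (minus strand), chr2:74704465-74704614 (plus strand), and chr6:52240855-52241004 and chr6:52234940-52235089 (minus strand) for the upstream and the downstream start of *Hoxa10*. Capitals mark CCAAT on either strand, a motif bound by NF-Y.
Hoxa11: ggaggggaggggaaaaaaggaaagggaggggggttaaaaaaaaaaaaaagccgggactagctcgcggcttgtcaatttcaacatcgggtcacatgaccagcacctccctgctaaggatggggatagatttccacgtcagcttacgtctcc
Hoxd8: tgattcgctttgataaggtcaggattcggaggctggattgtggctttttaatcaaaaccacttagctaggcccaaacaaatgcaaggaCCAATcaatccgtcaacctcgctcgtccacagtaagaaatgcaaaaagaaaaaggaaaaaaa
Hoxa10 upstream: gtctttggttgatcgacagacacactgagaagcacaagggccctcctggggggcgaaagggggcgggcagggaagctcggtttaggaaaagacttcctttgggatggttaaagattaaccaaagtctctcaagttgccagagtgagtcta
Hoxa10 downstream: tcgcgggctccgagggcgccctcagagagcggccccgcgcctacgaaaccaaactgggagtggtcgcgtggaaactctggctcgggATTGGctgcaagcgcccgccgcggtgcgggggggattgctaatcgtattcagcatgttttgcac
The RefSeq table held 24 windows of 22 Hox genes, and 11 of them (45.8%) held CCAAT or its complement ATTGG, beside 24.5% of all 32851 windows of the same length. TATAAA was in 12.5% of the Hox windows and 7.57% of all, TTTATNG in 8.33% and 5.81%, and TGATNNAT in 12.5% and 4.12%, all on both strands. CG occurred a median of 6.5 times in a Hox window and 4 times in all. The windows of *Hoxa11* and of the upstream start of *Hoxa10* hold no CCAAT. A match or its lack describes only these letters in this window.

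Hox proteins bind DNA together with TALE homeodomain partners of the Pbx, Meis and Pknox families. Of the list of 9, 8 were named in the tables, 5 were tested and 0 were called between the labels (limma). Their median difference was 0.02 on the log2 scale, beside 0.12 over all genes. *Meis3* measured 8.66, 4.71 and 3.51 FPKM in bone and 5.94, 3.55 and 4.39 FPKM in osteoblasts, and was the one tested member higher in each library low in *Hbb-bt*. *Meis1*, a partner of *Hoxa9* in blood progenitors, measured 1.24, 0.954 and 1.55 FPKM in bone and 1.26, 3.05 and 2.17 FPKM in osteoblasts and was lower there, as was *Pknox1*. These counts of 1 and 2 of 5 stand beside 16.9% and 38.4% of genes, and those scaled to named genes, 3 higher and 1 lower, beside 48.6% and 21.4%. *Pbx3* ranged from 1.92 to 4.32 FPKM with overlap.

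Of 22 factors of limb and body position, 20 were named, 8 were tested and 0 were called, with a median difference of -0.46. *Tbx15* (2.11 to 12.0 FPKM), *Shox2* (1.91 to 10.8 FPKM), *Irx3* (1.06 to 14.2 FPKM), *Gli3* (1.26 to 3.75 FPKM) and *Tbx18* (0.186 to 3.45 FPKM), all known from limb growth, were higher in each library low in *Hbb-bt*. That is 5 of 8 and 0 lower, beside the 16.9% and 38.4% of genes given above. Scaled to named genes it was 6 of 8 and 0 lower, beside 48.6% and 21.4%. *Tbx18* was at 0.186 to 0.310 FPKM in the libraries high in *Hbb-bt* and passed the filter on the mean through the others. Nothing is therefore read from these counts. *Shox2*, which is needed for the upper limb segment, measured 10.8, 7.36 and 2.40 FPKM in bone and 8.13, 1.91 and 2.20 FPKM in osteoblasts. *Pitx1*, which specifies the hindlimb, measured 1.45, 0.210 and 2.31 FPKM in bone and 0.996, 2.05 and 1.08 FPKM in osteoblasts. *Tbx4* of the hindlimb and *Tbx5* of the forelimb reached 0.298 and 0.198 FPKM, near the floor.

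The Cdx factors and the Polycomb and Trithorax complexes switch Hox clusters on in the embryo and hold them open or shut afterwards. Of the 17 on the list 16 were named, 13 were tested and 0 were called, with a median difference of 0.27. *Cdx1*, *Cdx2* and *Cdx4* were listed at 0 in all libraries. *Bmi1* (1.18 to 7.36 FPKM) and *Rnf2* (2.00 to 9.15 FPKM), Polycomb proteins, were higher in each library low in *Hbb-bt*, and 10 of the 13 were lower, beside 16.9% and 38.4% of genes. This rested on the scale, as 3 were higher and 3 lower after scaling to named genes, where 48.6% and 21.4% of genes were. *Cbx2* was at 0.696 to 0.809 FPKM in the libraries low in *Hbb-bt* and passed the filter on the mean through the others. Nothing is therefore read from these counts. Of those lower in FPKM, *Ezh2*, the methyltransferase of Polycomb, measured 5.50, 1.93 and 15.1 FPKM in bone and 2.85, 20.4 and 19.7 FPKM in osteoblasts, and *Dot1l*, a histone methyltransferase, 3.02, 1.19 and 15.5 FPKM in bone and 5.25, 10.8 and 10.5 FPKM in osteoblasts. *Kmt2a*, the Trithorax methyltransferase, ranged from 1.39 to 5.95 FPKM.

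Among the noncoding RNAs and *Evx* genes of the clusters, 16 of 18 were named, 2 were tested and 0 were called, with a median difference of -0.57. *Hoxa11os* measured 4.54, 4.57 and 1.64 FPKM in bone and 1.80, 2.01 and 1.25 FPKM in osteoblasts. These values were above those of *Hoxa11* in all 6 libraries, but reads of the pair could not be told apart where they overlap. *Hotairm1* measured 3.52, 2.35 and 1.03 FPKM in bone and 2.05, 0.406 and 1.81 FPKM in osteoblasts, and was higher in each library low in *Hbb-bt* (16.9% of genes). *Hotair* was one of the 5 listed at 0 in all libraries, and *Hottip*, next to *Hoxa13*, reached 0.108 FPKM. *Hoxaas3*, with a mean between 0.1 and 1 FPKM, reached 1.37 FPKM and was lower in each library low in *Hbb-bt*, as were 40.7% of genes with a mean of at least 0.1 FPKM.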

How the data were processed

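RNA-seq was done on 3 libraries labelled bone and 3 labelled osteoblasts. The authors aligned the reads, in pairs of 75 bp, with HISAT2 2.0.5 to GRCm38 and estimated expression with StringTie 1.3.3, and the submitters' notes name SAMtools 1.7. They deposited the coverage, FPKM and TPM of each feature, with no counts. The deposited coverage is a signal, the mean reads over each base.

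FPKM was summed by gene name. Libraries were compared by label on log2(FPKM + 1) over all genes with a mean of at least 1 FPKM, with limma 3.58.1 in R 4.3.3 and Benjamini-Hochberg adjustment at 0.05. The fit was tested on simulated data, which had a smaller spread within labels than the median gene here and no split by *Hbb-bt*. That test therefore does not show how the fit behaves on these libraries. Alternatives were another pseudocount, other filters and scales (both scalings to named genes use the sum of named genes, 1 without hemoglobin), a replicate block and leaving out each library. Depth was read from the ratio of coverage to FPKM. Sequences came from GENCODE vM1 transcripts on NCBIM37 and RefSeq promoters on GRCm38.p6, and no coordinates were converted. Tables used Python 3.11.15, pandas 2.3.3 and biopython 1.88.

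Every Hox gene is accounted for. Those with 1 FPKM in some library are given per library, those with a mean of 1 FPKM with their fit, and genes of the related lists are named where they reached 1 FPKM, with *Tbx4*, *Tbx5*, *Hotair*, *Hottip* and the *Cdx* genes added. The members, lists and *Hbb-bt* threshold were chosen with earlier results of these data known. Values of some genes are not reported here. Genes not named in the tables, such as *Prrx1* and *Suz12*, were not analysed here.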

Additional observations from a re-analysis of the deposited data

How the results depend on the processing

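Leaving out 1 library at a time gave 0 to 360 called genes between the labels, 3 without bone 3 and 360 (312 higher and 48 lower in osteoblasts) without osteoblasts 1, and 0 of the Hox genes and of the related lists in each case. The deviations of same-numbered libraries correlated at 0.84, -0.75 and 0.83 for numbers 1, 2 and 3, so the numbers were not taken as pairs. The sign followed *Hbb-bt* in all pairs, same number or not, so the check does not tell whether same-numbered libraries share a mouse. A replicate block on the numbers called 49 genes, 46 higher and 3 lower, with 0 Hox genes. Without both bone 3 and osteoblasts 1, a setting added after the data were seen, 3041 of 12173 genes (25.0%) were called, 2235 higher and 806 lower. Beside that share, 1 of 8 Hox genes was called (*Hoxa11*, -0.97, with *Hoxa7* at -0.88 and *Hoxd8* at -0.86 past no threshold). So were 3 of 8 limb and positional factors (*Irx3*, *Shox2* and *Tbx18*, lower) and 5 of 13 Polycomb and Trithorax regulators (*Cbx2*, *Cbx7*, *Dot1l* and *Ezh2* higher, *Bmi1* lower). With so few genes per list, nothing is read from these counts. The *Hoxd* sum differed by -1.05 against -0.40 in all 6 libraries. The 4 libraries left differ in *Hbb-bt* as they do in label.

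*Hoxa9* reversed from 0.06 to -0.0089 with TPM, -0.034 scaled to named genes, -0.0039 scaled without hemoglobin, -0.15 with quantile normalization and -0.22 without both libraries, and ran from -0.09 to 0.26 with 1 library left out. *Hoxc6* reversed from 0.13 to -0.075 with quantile normalization and ran from -0.050 to 0.25. With 1 library left out, *Hoxa7* ran from -0.62 to 0.12, *Hoxa10* from -0.64 to 0.15, *Hoxd8* from -0.67 to 0.025 and *Hoxc10* from -0.42 to -0.06. *Hoxa11* ran from -0.79 to -0.34, a range that holds no value without bone 1, its highest library. Without bone 1 its mean fell under 1 FPKM and it was not tested, so its range is not comparable to the others. The sums ran from -0.62 to 0.15 (*Hoxa*), -0.42 to 0.24 (*Hoxb*), -0.50 to 0.03 (*Hoxc*) and -0.73 to -0.10 (*Hoxd*). Over 115 alternatives of the 7 Hox genes tested, 1 passed the threshold and 13 reversed, and the cause was not tested.

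Of the 35 Hox genes, 11 lay at or above the depth floor in every library. The files hold no counts, so single values have no interval. With 3 libraries per label, the smallest p of an exact two-sided permutation test of 1 gene is 0.1.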
